A study of Mus musculus with 8 samples.

Results

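The step from the monocyte-dendritic cell progenitor (MDP) to the common monocyte progenitor (cMoP) was followed in 3 of the 8 libraries of a mouse RNA sequencing series, 2 of cMoP and 1 of MDP, taken as the labels name them. By their genotype tags all 3 are wild type (WT), but the descriptions of the cMoP libraries hold FL_FL, read here as floxed alleles, and that of MDP does not. Neither was treated. The fits also drew on 2 libraries of control Ly6Chi monocytes (floxed), 1 of Ly6Clo monocytes (not described as floxed) and 2 of Ly6Chi monocytes with a knockout of Upf2, a factor of nonsense-mediated mRNA decay, which here mainly lend an estimate of the spread. All came from bone marrow by source name, although a cell type tag calls them a monocytic cell line and the growth notes call them primary cells, and the labels give no age, strain or sorting gate. The labels do not tie the 2 cMoP libraries to different animals. The p-values therefore reflect spread between libraries, and that spread may be technical.

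In the bone marrow the MDP can still give rise to both dendritic cells and monocytes. It carries the receptor Flt3, whose ligand drives dendritic cell development, beside Kit and the receptor of macrophage colony-stimulating factor, Csf1r. The cMoP has lost Flt3, has gained the surface antigen Ly6C and yields monocytes. Its transcription factors include PU.1 (Spi1), Irf8, Klf4 and members of the C/EBP family, and in the same stretch of myeloid differentiation the genes of the primary (azurophil) granules are transcribed at high levels.

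Spliced reads totalled 36887070 and 37833159 in cMoP replicates 1 and 2, against 29100467 in MDP, and genes with at least 1 TPM (transcripts per 1000000) were 11883 and 11106 in cMoP, against 12635 in MDP. The 3′ lean of the libraries, meaning how much more of their splicing was read near the ends of genes, was not equal. Over 5553 genes the median log2 ratio of the last 3 introns to the leading 3 introns was 0.82 and 1.13 in cMoP, against 0.57 in MDP. The median expression change was 0.09 in genes of 1 to 3 introns and −0.25 in genes of 20 or more. The part of the lean in the results below was not tested beyond the fits named with it. The cMoP replicates correlated across genes with a Pearson r of 0.973, and MDP correlated with them at 0.957 and 0.941.

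The labels were met by the defining markers. Flt3 (ENSMUSG00000042817) had 4.19 and 0.88 TPM in the cMoP libraries, against 197 TPM in MDP. Ly6c2 (ENSMUSG00000022584), which encodes Ly6C, had 4875 and 3518 TPM in cMoP, against 184 TPM in MDP. Kit, the receptor of stem cell factor, was read in all 3 libraries at 49.95 and 30.99 TPM in cMoP, against 60.5 TPM in MDP, and Csf1r at 169 and 89.9 TPM in cMoP, against 163 TPM in MDP. The Kit values of both cMoP libraries lay below MDP and the Csf1r values on either side of it, and neither gene passed the test (log2 change −0.31 ± 0.23 and −0.09 ± 0.28, SE, here and below for log2 changes). Among markers of other cells, the 16 genes of T and NK cells took 0.000165% and 0.000131% of all TPM in cMoP, against 0.000981% in MDP, and those of erythroid, megakaryocyte and mast cells 0.00611% and 0.00266% in cMoP, against 0.0086% in MDP. B lineage genes took more, 0.0493% and 0.0268% in cMoP, against 0.0788% in MDP. Secondary granule and neutrophil genes took 0.0717% and 0.0669% in cMoP, against 0.173% in MDP. The part of such cells in the libraries was not tested.

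Across 13126 genes that reached 1 TPM in 2 or more of the 8 libraries, limma's test with Benjamini-Hochberg adjustment passed 598 (4.56%) at an adjusted p under 0.05, 313 higher in cMoP (2.38%) and 285 lower (2.17%). The filter admits a gene read in the 2 cMoP libraries alone, but not one read in the 1 MDP library alone. The counts of rises and falls are therefore not on equal terms. Log2 changes are cMoP minus MDP on log2(scaled TPM + 1). On that scale low genes appear to change less than they do. TPM values are printed as deposited. On the deposited values both cMoP libraries lay above MDP in all 313 genes called higher and below it in all 285 called lower, so absence of overlap in a called gene adds nothing to the call. Of the 598 genes 552 differed by at least 2-fold. The genes that rose were abundant, with a median of 32.1 TPM in cMoP, against 11.04 TPM in MDP. Those that fell had a median of 1.5 TPM in cMoP, against 12.03 TPM in MDP. On spliced reads of the last 3 introns alone, where a 3′ lean has least room, edgeR tested 283 of the genes that rose and 248 of those that fell, all with the same direction, and 212 and 159 passed. With the lean of each library as a covariate in limma's fit, 85 of the genes that rose and 42 of those that fell passed. The covariate also takes up a residual degree of freedom, and the lean itself differs between MDP and cMoP. A call lost with the covariate, here or below, is therefore no measure of the part of the lean. The number of calls also leaned on libraries of the other groups, which supply most of the estimate of spread: it was 146 without knockout replicate 1, 153 without knockout replicate 2, 177 without Ly6Chi replicate 1 and 183 without Ly6Chi replicate 2. With cMoP replicate 1 as the sole cMoP library 908 genes passed, and with replicate 2 as the sole one 4768.

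**Figure D1:**
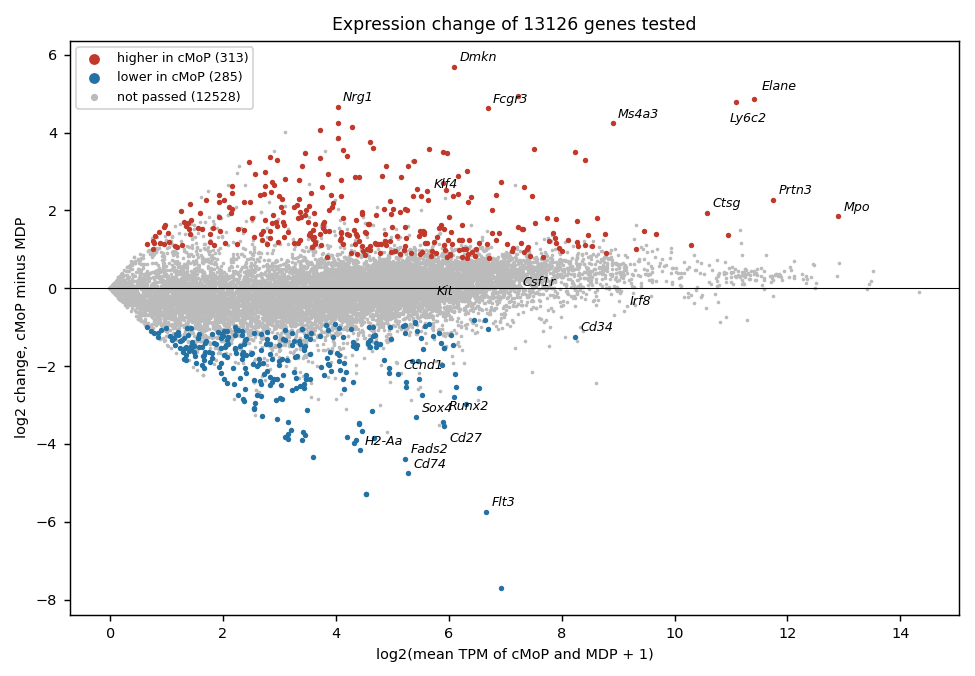
Log2 change (cMoP minus MDP, vertical axis) against log2 of the mean TPM of cMoP and MDP plus 1 (horizontal axis) for the 13126 genes tested, with 313 that passed as higher in red and 285 as lower in blue. The labelled genes at the right are the primary granule genes Mpo, Prtn3, Elane and Ctsg with Ly6c2, and the lowest labelled gene is Flt3.

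Surface antigens marked the step in both directions. Of 16 tested surface antigens of progenitors 4 rose and 3 fell, with a list median of −0.39, against −0.03 over all genes tested. Ly6c2 and Flt3, counted among these, define the stages, so their directions go with the labels. With any 1 of the 4 control or knockout Ly6Chi libraries left out 2 rose and 2 fell, and with the lean covariate 3 rose and none passed as lower. Fcgr3, the low-affinity receptor for IgG, had 256 and 136 TPM in cMoP, against 8.25 TPM in MDP (log2 change 4.62 ± 0.28, adjusted p = 0.00247). Its inhibitory counterpart Fcgr2b had 109 and 87.96 TPM in cMoP, against 50.3 TPM in MDP (log2 change 1.25 ± 0.14, adjusted p = 0.0127). All cMoP values of both receptors lay above that of MDP, as in every gene called higher. Ly6c2 rose by 4.79 ± 0.22 (adjusted p = 0.00115), and Ly6c1, a close copy whose reads may be shared with it, had 2.51 and 1.9 TPM in cMoP, against 0.64 TPM in MDP.

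On the falling side, Flt3 changed by −5.74 ± 0.55 (adjusted p = 0.00767). Cd27, a co-stimulatory receptor of the tumour necrosis factor family found on early progenitors, had 8.79 and 5.49 TPM in cMoP, against 112 TPM in MDP (log2 change −3.53 ± 0.37, adjusted p = 0.0102). The stem and progenitor antigen Cd34 had 190.3 and 120.0 TPM in cMoP, against 444 TPM in MDP (log2 change −1.24 ± 0.24, adjusted p = 0.0497), and 7 of 18 other settings called it. Replicate 2 was the lower cMoP library in all 3 genes. The chemokine receptor Cx3cr1 had 19.8 and 3.59 TPM in cMoP, against 48.6 TPM in MDP. With replicates this far apart it did not pass (log2 change −2.06 ± 0.74, adjusted p = 0.177). The monocyte chemokine receptor Ccr2 stood at 129 and 74.1 TPM in cMoP, on either side of 123 TPM in MDP.

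Receptors for growth factors and cytokines rose in 3 and fell in 2 of 21 tested members, beside 2.38% and 2.17% of all genes, with medians of −0.25 for the list and −0.03 for all genes. None of the 3 rises passed with any 1 of the 4 control or knockout Ly6Chi libraries left out, with the lean covariate, with quantile normalisation or with no further scaling. Csf2ra, the binding chain of the receptor of granulocyte-macrophage colony-stimulating factor, had 140.0 and 76 TPM in cMoP, against 40.9 TPM in MDP (log2 change 1.61 ± 0.28, adjusted p = 0.0386). Its signalling chain Csf2rb had 68.7 and 61.3 TPM in cMoP, against 41.95 TPM in MDP (log2 change 0.92 ± 0.16, adjusted p = 0.0411), while the near-copy Csf2rb2, with which reads may be shared, had 7.96 and 3.66 TPM in cMoP, against 15.4 TPM in MDP and did not pass. Of 18 other settings 5 called Csf2rb, and on spliced reads edgeR did not pass it (adjusted p = 0.219). The interferon gamma receptor chain Ifngr1 had 183 and 116 TPM in cMoP, against 66.6 TPM in MDP (log2 change 1.42 ± 0.21, adjusted p = 0.0241). Csf3r, the receptor of granulocyte colony-stimulating factor, had 76.4 and 63.9 TPM in cMoP, against 53.9 TPM in MDP, a difference that missed the threshold (log2 change 0.67 ± 0.14, adjusted p = 0.0599). Il1r1, the interleukin 1 receptor, fell with Flt3, at 1.1 and 0.51 TPM in cMoP, against 7.61 TPM in MDP (log2 change −2.06 ± 0.23, adjusted p = 0.0113). The fall of Flt3 goes with the stage labels.

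The primary granule list held the largest share of rises of any list: 14 of 24 tested members rose (58.3%, beside 2.38% of all genes) and none passed as lower, with a median log2 change of 1.83. The 14 include the glutathione transferases Gstm1 and Mgst1 and the membrane protein Igsf6. The lists were chosen with earlier results of these data known, so rankings of lists, here and below, are descriptions only. Together the 25 genes of the primary granule list took 3.51% and 3.36% of all TPM in cMoP, against 1.18% in MDP. Elane (ENSMUSG00000020125), neutrophil elastase, had 5617 and 4842 TPM in cMoP, against 219 TPM in MDP (log2 change 4.87 ± 0.25, adjusted p = 0.00179). Mpo, myeloperoxidase, had 12416 and 10338 TPM in cMoP, against 3876 TPM in MDP (log2 change 1.85 ± 0.31, adjusted p = 0.0342). Both were thus already expressed in MDP. Prtn3, proteinase 3, had 5005 and 5907 TPM in cMoP, against 1388 TPM in MDP (log2 change 2.27 ± 0.26, adjusted p = 0.0127). Ctsg, cathepsin G, had 2226 and 2417 TPM in cMoP, against 743 TPM in MDP (log2 change 1.95 ± 0.24, adjusted p = 0.016). Replicate 1 was the higher cMoP library in Elane and Mpo and replicate 2 in Prtn3 and Ctsg. With the lean covariate Elane passed limma's test (adjusted p = 0.024), while Mpo, Prtn3 and Ctsg did not (0.216, 0.0505 and 0.0806).

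The promoters of these 4 genes are shown because they are the serine proteases and the peroxidase with the highest levels in the list, and all 4 hold GAGGAA. Of the 13 members of the primary granule list that rose and had a RefSeq promoter, 7 hold it, and Fcnb, Gstm1, Lyz2, Mgst1, Ms4a3 and Nkg7 do not. Each line gives the 250 bases before the annotated start, 5′ to 3′ on the gene's strand, from RefSeq on GRCm38.p6, and capitals mark GAGGAA, the core letters that PU.1 binds. Elane lies at chr10:79886062-79886311 on the plus strand, Prtn3 at chr10:79879417-79879666 on the plus strand, Ctsg at chr14:56102575-56102824 on the minus strand and Mpo at chr11:87793534-87793783 on the plus strand.
Elane: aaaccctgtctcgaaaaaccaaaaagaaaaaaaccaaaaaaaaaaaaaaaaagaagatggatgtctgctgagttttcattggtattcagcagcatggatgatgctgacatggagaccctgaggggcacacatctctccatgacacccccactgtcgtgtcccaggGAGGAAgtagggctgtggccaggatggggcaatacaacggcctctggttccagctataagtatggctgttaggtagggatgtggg
Prtn3: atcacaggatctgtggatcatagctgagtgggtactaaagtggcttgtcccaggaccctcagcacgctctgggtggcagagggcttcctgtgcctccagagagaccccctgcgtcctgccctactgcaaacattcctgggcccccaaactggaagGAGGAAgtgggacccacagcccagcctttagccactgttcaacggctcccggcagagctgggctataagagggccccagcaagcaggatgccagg
Ctsg: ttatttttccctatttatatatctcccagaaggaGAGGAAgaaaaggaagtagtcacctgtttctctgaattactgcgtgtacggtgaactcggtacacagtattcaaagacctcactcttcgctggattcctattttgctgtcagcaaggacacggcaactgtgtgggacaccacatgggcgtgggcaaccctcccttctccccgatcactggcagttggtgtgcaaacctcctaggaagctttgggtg
Mpo: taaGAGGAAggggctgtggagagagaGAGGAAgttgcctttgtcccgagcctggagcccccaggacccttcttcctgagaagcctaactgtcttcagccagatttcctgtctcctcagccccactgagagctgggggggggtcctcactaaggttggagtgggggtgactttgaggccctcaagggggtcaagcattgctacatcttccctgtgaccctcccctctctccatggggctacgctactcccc
Counted from the start, GAGGAA begins at −85 in Elane, at −95 in Prtn3, at −216 in Ctsg and at −247 and −224 in Mpo. Elane and Prtn3 are neighbours on the same strand. Searched on both strands, GAGGAA occurs in 23.1% of 27025 RefSeq promoters of this length, in 22.6% of those of tested genes, in 22.9% of the 223 matched genes that rose and in 24.7% of the 182 that fell, so these shares lie close together. TTGCNNAA, the letters C/EBP factors bind, occurs in 9.53% of all promoters, in 7.52% of those of tested genes, in 13% (29) of those of genes that rose and in 6.59% (12) of those of genes that fell. AACNG, a Myb motif, occurs in 74.1%, 72.7%, 68.6% and 70.9% of the same sets. In the 13 list members above, the shares were 53.8% for GAGGAA, 15.4% for TTGCNNAA and 92.3% for AACNG. No test was made of these shares. These matches describe letters and not binding.

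The remaining granule genes that rose fall into proteases, membrane proteins and enzymes. Ctsc, cathepsin C, which trims the granule serine proteases into their active form, had 135 and 236 TPM in cMoP, against 41.1 TPM in MDP (log2 change 2.39 ± 0.42, adjusted p = 0.039). Prss57, a further serine protease of the same granules, had 66.9 and 60.3 TPM in cMoP, against 29.01 TPM in MDP (log2 change 1.40 ± 0.23, adjusted p = 0.0319). The tetraspan membrane protein Ms4a3, a marker of granulocyte and monocyte progenitors, had 679 and 1118 TPM in cMoP, against 56.03 TPM in MDP (log2 change 4.24 ± 0.43, adjusted p = 0.00947). The granule membrane gene Nkg7 rose by 2.60 ± 0.27 and the tetraspanin Cd63 by 2.03 ± 0.32. Lyz2, lysozyme, had 778 and 404 TPM in cMoP, against 198 TPM in MDP (log2 change 1.80 ± 0.33, adjusted p = 0.0444), and the lectin ficolin B, Fcnb, rose by 2.77 ± 0.20. Gstm1 and Mgst1, counted in this list, are glutathione transferases and no granule proteins, and Igsf6 is an immunoglobulin-like membrane protein. Serglycin, Srgn, the proteoglycan that packs granule proteases, had 937 and 876 TPM in cMoP, against 359.6 TPM in MDP and missed the threshold (log2 change 1.64 ± 0.36, adjusted p = 0.0706). With the lean covariate 7 of the 24 members passed as higher, without knockout replicate 1 it was 6, and on spliced reads of the last 3 introns 14.

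**Figure D2:**
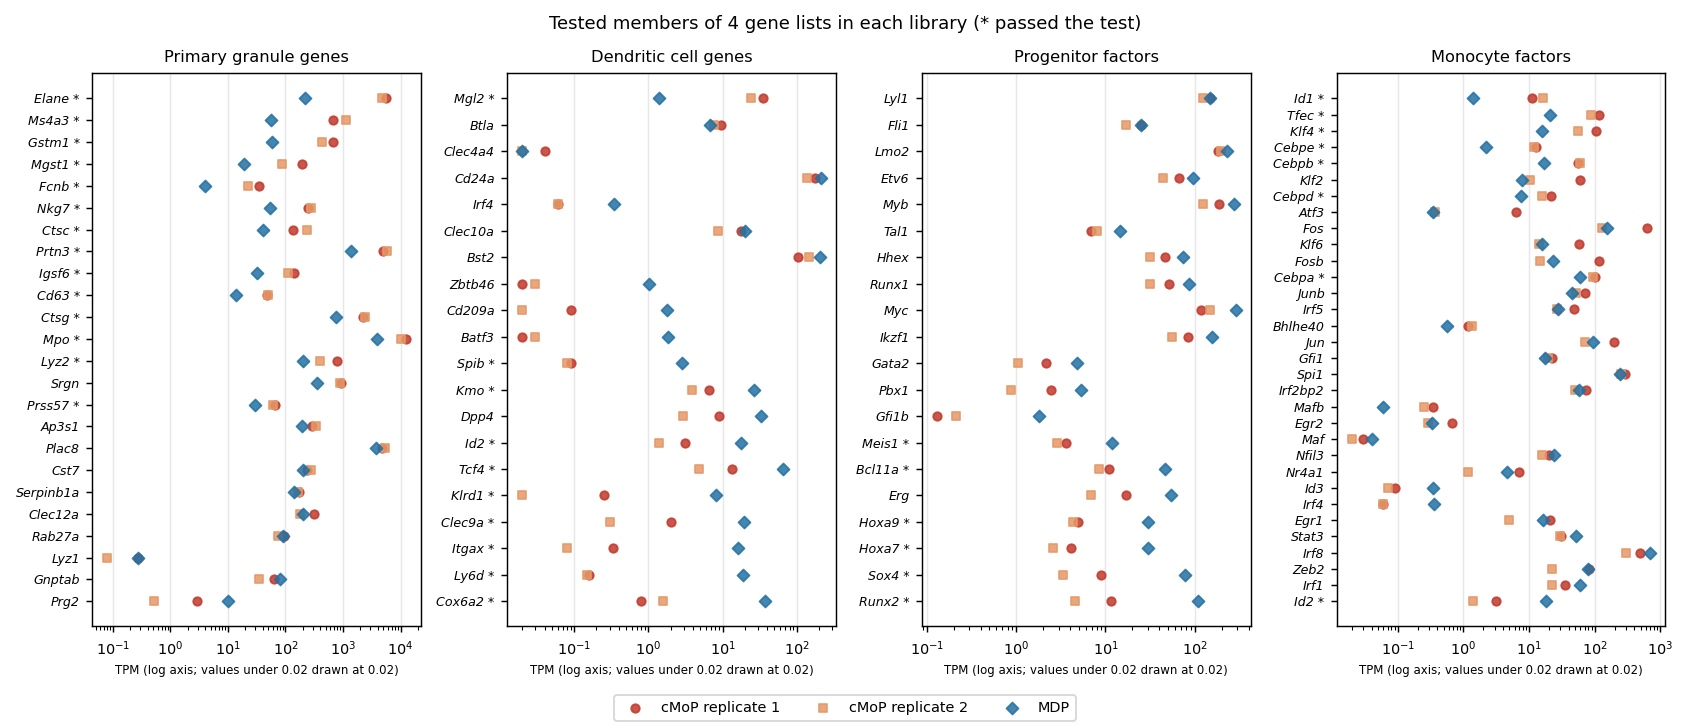
TPM on log axes in cMoP replicate 1 (red circles), cMoP replicate 2 (orange squares) and MDP (blue diamonds) for the tested members of the primary granule, dendritic cell, progenitor factor and monocyte factor lists, ordered by log2 change, with a star on genes that passed. In the starred granule genes both cMoP libraries lie right of MDP, and in the starred progenitor factors both lie left of it. All genes that passed as higher or lower lie so.

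Genes of the later, secondary granules and of mature neutrophils did not follow. Of 19 tested members 1 rose (5.26%) and 2 fell (10.5%), the protease Mmp9 and the chitinase-like Chil1, beside 2.38% and 2.17% of all genes. The list median was −1.10. With any 1 of the 4 control or knockout Ly6Chi libraries left out neither fall passed. Ltf, lactoferrin, had 12.1 and 4.02 TPM in cMoP, against 70.9 TPM in MDP (log2 change −2.87 ± 0.60, adjusted p = 0.0625). S100a8 and S100a9, the subunits of calprotectin, had 165 and 205 TPM and 153 and 65.5 TPM in cMoP, against 454 TPM and 673 TPM in MDP, and neither passed. The list summed to 0.0717% and 0.0669% of all TPM in cMoP, against 0.173% in MDP, with Stfa1 listed at 0 in all 3 libraries. The gene that rose, Anxa1, encodes the membrane-binding protein annexin A1. Whether neutrophil RNA had a part in the MDP values was not tested, and in bulk RNA fewer cells of a type and less RNA per cell cannot be told apart.

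Of 20 tested transcription factors of stem and early progenitor cells 6 fell (30.0%, beside 2.17% of all genes), none passed as higher, and 14 did not pass (list median −0.91). Runx2, a Runt-domain factor, had 11.5 and 4.51 TPM in cMoP, against 109 TPM in MDP (log2 change −3.45 ± 0.40, adjusted p = 0.0132). Sox4, an HMG-box factor of early progenitors, had 8.84 and 3.34 TPM in cMoP, against 77.6 TPM in MDP (log2 change −3.31 ± 0.40, adjusted p = 0.015). The homeobox genes Hoxa9 and Hoxa7 had 4.9 and 4.37 TPM and 4.09 and 2.61 TPM in cMoP, against 29.6 TPM and 29.97 TPM in MDP (log2 changes −2.16 ± 0.20 and −2.58 ± 0.22). Their cofactor Meis1 had 3.6 and 2.9 TPM in cMoP, against 11.8 TPM in MDP (log2 change −1.33 ± 0.21, adjusted p = 0.0286). In each of these 5 replicate 2 was the lower of the cMoP libraries. Bcl11a, a repressor with roles in lymphoid and plasmacytoid dendritic cells, completed the 6 at −1.85 ± 0.22.

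General blood progenitor factors did not pass. Myb had 187 and 123 TPM in cMoP, against 277 TPM in MDP (log2 change −0.56 ± 0.22, adjusted p = 0.204), and Myc had 116 and 148 TPM in cMoP, against 287 TPM in MDP (log2 change −0.81 ± 0.31, adjusted p = 0.196). Lmo2, a bridging protein of blood transcription complexes, had 179.8 and 199 TPM in cMoP, against 231 TPM in MDP (log2 change after scaling 0.02 ± 0.21). With the lean covariate 0 of the 20 passed limma's test, with 8 at an unadjusted p under 0.05, and the list median was then −0.78. On spliced reads of the last 3 introns, 6 members passed as lower. Without Ly6Chi replicate 1, and likewise without knockout replicate 1, 3 did.

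Among 32 tested monocyte factors 7 rose and 1 fell, beside 2.38% and 2.17% of all genes, with a median of 0.58. Without knockout replicate 1, without knockout replicate 2 or without both, 2 rose and none passed as lower. Without Ly6Chi replicate 1 or 2, and likewise with the lean covariate, 4 rose. Klf4, a zinc finger factor that mice need to form Ly6Chi monocytes, had 103 and 56.3 TPM in cMoP, against 15.8 TPM in MDP (log2 change 2.49 ± 0.27, adjusted p = 0.0109). Of the C/EBP genes 4 rose, Cebpa (log2 change 1.01 ± 0.16), Cebpb, Cebpd (1.48 ± 0.27) and Cebpe (2.29 ± 0.20). Cebpb stood at 56.1 and 59.7 TPM in cMoP, against 16.99 TPM in MDP, and Cebpe, a factor of late granule gene expression, at 12.7 and 11.9 TPM in cMoP, against 2.2 TPM in MDP. Tfec, a relative of the lysosomal regulator Tfeb, had 117 and 86.8 TPM in cMoP, against 20.6 TPM in MDP (log2 change 2.53 ± 0.19, adjusted p = 0.00388). All of these lay above MDP in both cMoP libraries, as did every gene called higher.

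The factors that define the lineage at both stages did not pass. Irf8 had 490.0 and 300.4 TPM in cMoP, against 706 TPM in MDP (log2 change −0.57 ± 0.23, adjusted p = 0.201), Spi1 had 287 and 251 TPM in cMoP, against 241 TPM in MDP (log2 change 0.46 ± 0.16, adjusted p = 0.171), and Gfi1, a repressor that favours granulocytes, had 22.4 and 19.2 TPM in cMoP, against 17.4 TPM in MDP (log2 change 0.52 ± 0.18, adjusted p = 0.167). Immediate early genes set the cMoP replicates apart from each other. Fos had 626 and 129 TPM in cMoP, against 154 TPM in MDP, and Klf2 had 59.5 and 10.2 TPM in cMoP, against 7.87 TPM in MDP. Egr1 had 21.1 and 4.93 TPM in cMoP, against 16.2 TPM in MDP. In all 3 replicate 1 was high and replicate 2 lay near or below MDP. The inhibitor of differentiation genes went opposite ways: Id1 had 11.1 and 16.4 TPM in cMoP, against 1.41 TPM in MDP (log2 change 2.80 ± 0.34, adjusted p = 0.0156), and Id2, which dendritic cell progenitors use, had 3.08 and 1.39 TPM in cMoP, against 17.8 TPM in MDP (log2 change −2.34 ± 0.29, adjusted p = 0.016).

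The dendritic cell list held the largest share of falls, 9 of 20 tested members (45.0%, beside 2.17% of all genes), with 1 rise and a median of −1.50. Itgax, the integrin CD11c, had 0.33 and 0.08 TPM in cMoP, against 16.2 TPM in MDP (log2 change −3.64 ± 0.28, adjusted p = 0.00392). Clec9a, a lectin receptor of cross-presenting dendritic cells and their precursors, had 2.03 and 0.30 TPM in cMoP, against 19.3 TPM in MDP (log2 change −3.14 ± 0.47, adjusted p = 0.0264). Tcf4, the factor that specifies plasmacytoid dendritic cells, had 13.5 and 4.84 TPM in cMoP, against 64.3 TPM in MDP (log2 change −2.54 ± 0.46, adjusted p = 0.0422). Ly6d and Cox6a2, both read in plasmacytoid dendritic cells, had 0.16 and 0.15 TPM and 0.79 and 1.58 TPM in cMoP, against 19 TPM and 37.7 TPM in MDP. Each of these genes was above 15 TPM in MDP, and Itgax, Ly6d and Cox6a2 were under 2 TPM in both cMoP libraries. Siglech, a further plasmacytoid marker, had 0.08 and 0.04 TPM in cMoP, against 14.2 TPM in MDP, and was left untested because no other library reached 1 TPM. The gene that rose, Mgl2, encodes a galactose-binding lectin of dendritic cells and macrophages, and had 34.6 and 24.5 TPM in cMoP, against 1.4 TPM in MDP (log2 change 3.86 ± 0.41, adjusted p = 0.0102). With the lean covariate 3 members passed as lower, without knockout replicate 1 it was 4, and on spliced reads of the last 3 introns 13 of 23.

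Class II antigen presentation fell in 5 of 14 tested members (35.7%, beside 2.17% of all genes). Cd74, the invariant chain that escorts class II molecules, had 1.98 and 0.83 TPM in cMoP, against 74.2 TPM in MDP (log2 change −4.76 ± 0.36, adjusted p = 0.00392). The class II chains H2-Aa and H2-Eb1 had 1.36 and 0.58 TPM and 0.38 and 0.27 TPM in cMoP, against 39.8 TPM and 18.9 TPM in MDP (log2 changes −4.16 ± 0.44 and −3.69 ± 0.45). H2-Ab1 had 9.51 and 7.49 TPM in cMoP, against 51.2 TPM in MDP (log2 change −2.17 ± 0.31, adjusted p = 0.0215), and H2-Ob changed by −2.52 ± 0.29. Replicate 2 was the lower cMoP library in all 5. The peptide loading genes H2-DMa and H2-DMb1 did not pass, at 108 and 62.4 TPM and 67.6 and 41.5 TPM in cMoP, against 165 TPM and 59.1 TPM in MDP. Ciita, the class II transactivator, had 0.01 and 0.01 TPM in cMoP, against 1.01 TPM in MDP. With the lean covariate 2 members passed as lower.

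B lineage genes fell in 3 of 12 tested members (beside 2.17% of all genes), and in 2 with any 1 of the 4 control or knockout Ly6Chi libraries left out. Cd22, a B cell inhibitory receptor, had 0.14 and 0.10 TPM in cMoP, against 7.51 TPM in MDP (log2 change −2.73 ± 0.21, adjusted p = 0.00392), Blnk, an adaptor of the B cell receptor, 0.34 and 0.35 TPM in cMoP, against 5.26 TPM in MDP (log2 change −2.02 ± 0.21, adjusted p = 0.0101), and Ighd changed by −2.46 ± 0.39. Dntt, the terminal transferase of lymphoid progenitors, had 0.07 and 0 TPM in cMoP, against 73.8 TPM in MDP, and no test was made because no other library reached 1 TPM. Pax5, a factor that defines committed B cells, had 0.05 and 0.05 TPM in cMoP, against 0.30 TPM in MDP. The 20 genes of the list summed to 0.0493% and 0.0268% of all TPM in cMoP, against 0.0788% in MDP. The part of B lineage cells in these values was not tested.

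**Figure D3:**
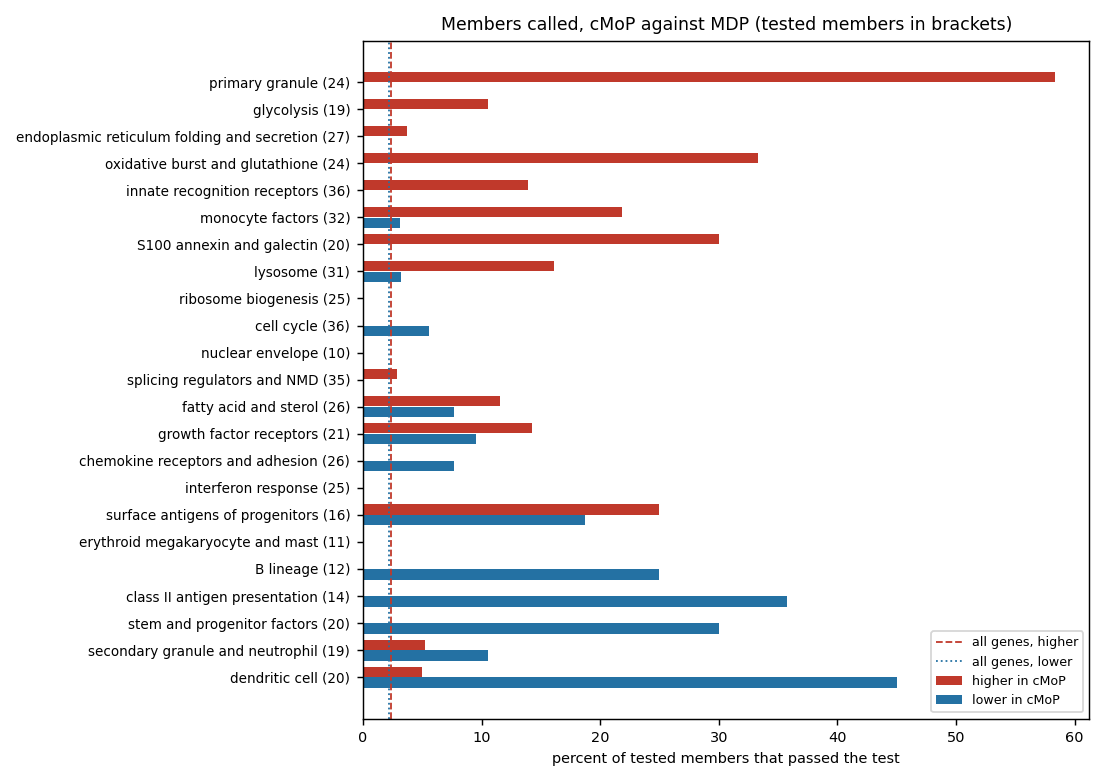
Share of the tested members of each list that passed the test as higher (red, above) or lower in cMoP (blue, below), for the lists with at least 10 tested members, ordered by median log2 change, with the shares over all genes, 2.38% and 2.17%, as dashed and dotted lines. The primary granule list leads the rises at 58.3% and the dendritic cell list the falls at 45.0%.

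Genes of the oxidative burst and of glutathione rose in 8 of 24 tested members (33.3%, beside 2.38% of all genes, list median 0.60). Cybb and Cyba, the membrane subunits of the phagocyte NADPH oxidase, had 66.95 and 31.1 TPM and 311 and 314 TPM in cMoP, against 11.1 TPM and 144 TPM in MDP (log2 changes 2.23 ± 0.35 and 1.42 ± 0.20). The cytosolic subunit gene Ncf4 rose by 1.41 ± 0.19, while Ncf1 (0.15 ± 0.20) did not pass. Gsr, glutathione reductase, had 238 and 170.3 TPM in cMoP, against 36.9 TPM in MDP (log2 change 2.72 ± 0.18, adjusted p = 0.00275), and Gstm1, a glutathione transferase with close family members, had 667 and 426 TPM in cMoP, against 57.5 TPM in MDP (log2 change 3.49 ± 0.22, adjusted p = 0.00257). Gstm1 and Mgst1 also count in the primary granule list. The microsomal transferases Mgst1 and Mgst2 and the peroxiredoxin Prdx5 made up the rest of the 8. With the lean covariate 4 passed, and without knockout replicate 1 it was 2.

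Innate recognition receptors rose in 5 of 36 tested members (13.9%, beside 2.38% of all genes), and none passed as lower. Without knockout replicate 1, 3 rose. Clec5a, a lectin receptor that signals through DAP12, had 81.03 and 100.2 TPM in cMoP, against 8.2 TPM in MDP (log2 change 3.59 ± 0.26, adjusted p = 0.00352). Trem3, a receptor of the same adaptor, had 94.2 and 119.9 TPM in cMoP, against 10.6 TPM in MDP (log2 change 3.49 ± 0.25, adjusted p = 0.00355). Clec4a2, an inhibitory lectin receptor, had 43.4 and 18.7 TPM in cMoP, against 1.94 TPM in MDP (log2 change 3.56 ± 0.39, adjusted p = 0.0107). With Fcgr3 and Fcgr2b these complete the 5. The lipopolysaccharide receptors Cd14 and Tlr4 had 23.8 and 9.79 TPM and 4.07 and 2.69 TPM in cMoP, against 1.74 TPM and 0.91 TPM in MDP, above MDP in each library, and did not pass (0.0882 and 0.0693, adjusted p).

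The S100, annexin and galectin list rose in 6 of 20 members (30.0%, beside 2.38% of all genes), and in 3 with any 1 of the 4 control or knockout Ly6Chi libraries left out. Lgals3, galectin-3, had 123 and 122 TPM in cMoP, against 19.5 TPM in MDP (log2 change 2.88 ± 0.18, adjusted p = 0.00247), and Anxa3 had 234 and 186 TPM in cMoP, against 85.7 TPM in MDP (log2 change 1.58 ± 0.14, adjusted p = 0.00665). The lysosome list rose in 5 of 31 members (16.1%, beside 2.38% of all genes) and fell in 1 (3.23%, beside 2.17%). Of these rises Ctsc and Cd63 also count in the primary granule list. The lysosome list rose in 1 member without Ly6Chi replicate 2 and in none without Ly6Chi replicate 1 or either knockout replicate. With the lean covariate 0 members passed as higher and 1 as lower. Neu1, the lysosomal sialidase, had 32.5 and 33.9 TPM in cMoP, against 12.2 TPM in MDP (log2 change 1.66 ± 0.17, adjusted p = 0.01), and Lamp1, a main protein of the lysosomal membrane, had 555 and 409.8 TPM in cMoP, against 227 TPM in MDP (log2 change 1.37 ± 0.17, adjusted p = 0.0165). The member that fell was Plbd1, a phospholipase B-like protein, at 1.55 and 0.84 TPM in cMoP, against 11.8 TPM in MDP (log2 change −2.32 ± 0.19, adjusted p = 0.00441).

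Among cell division genes the calls were D-type cyclins. Of 36 tested cell cycle genes 2 passed (5.56% as lower, beside 2.17% of all genes), Ccnd1 at 9.93 and 8.69 TPM in cMoP, against 57.5 TPM in MDP (log2 change −2.21 ± 0.17, adjusted p = 0.00392), and Ccnd2 at 25.4 and 25.1 TPM in cMoP, against 92.9 TPM in MDP (log2 change −1.54 ± 0.21, adjusted p = 0.0191). With any 1 of the 4 control or knockout Ly6Chi libraries left out 1 cell cycle gene passed. The third D-type cyclin, Ccnd3, had 142 and 175 TPM in cMoP, on either side of 172 TPM in MDP. The proliferation marker Mki67 had 111 and 63.8 TPM in cMoP, against 165 TPM in MDP (log2 change −0.66 ± 0.33, adjusted p = 0.269), and the list median was 0.09. Glycolysis enzymes rose in 2 of 19 members (10.5%, beside 2.38% of all genes), Aldoa (1.47 ± 0.26) and Ldhb (2.85 ± 0.41), with a list median of 0.90. In the endoplasmic reticulum list, whose median was 0.88, Xbp1 was the 1 of 27 that passed (3.70%, beside 2.38% of all genes). Xbp1, a factor of the unfolded protein response, had 160.2 and 171 TPM in cMoP, against 93.2 TPM in MDP (log2 change 1.12 ± 0.19, adjusted p = 0.0353).

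Without Ly6Chi replicate 1 or 2 or either knockout replicate, no member of the glycolysis or endoplasmic reticulum lists passed. The glycolysis list summed to 0.968% and 1.23% of all TPM in cMoP, against 0.696% in MDP, with replicate 2 the higher cMoP library.

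The endoplasmic reticulum list summed to 0.914% and 1.35% of all TPM in cMoP, against 0.676% in MDP, and the ribosome biogenesis list to 0.492% and 0.821% in cMoP, against 0.595% in MDP. Hspa5, the main chaperone of the endoplasmic reticulum, had 882 and 1618 TPM in cMoP, against 718 TPM in MDP, and the nucleolar genes Ncl and Npm1 had 518 and 1044 TPM and 1719 and 3050.4 TPM in cMoP, against 705 TPM and 2067 TPM in MDP. For Ncl and Npm1 MDP lay between the cMoP replicates. Of 25 ribosome biogenesis genes limma passed 0, with 0 at an unadjusted p under 0.05, and edgeR and DESeq2 on spliced reads passed 0 as well. Of 11 tested erythroid, megakaryocyte and mast cell genes limma passed 0, with 3 at an unadjusted p under 0.05, and edgeR and DESeq2 passed 0. The 1 tested T and NK gene did not pass limma, with an unadjusted p under 0.05, while edgeR and DESeq2 passed 2 of the genes they could test, both lower. Of 25 interferon response genes limma passed 0, with 8 at an unadjusted p under 0.05, all lower, where edgeR passed 4 and DESeq2 7 of 24 on spliced reads, all lower. Of 10 nuclear envelope genes 0 passed, with 0 at an unadjusted p under 0.05, and edgeR and DESeq2 passed 0. Among 35 splicing and decay regulators 1 passed as higher (2.86%, beside 2.38% of all genes), Hnrnpll, a regulator of alternative splicing, at 66.9 and 57.6 TPM in cMoP, against 33.6 TPM in MDP (log2 change 1.17 ± 0.13, adjusted p = 0.013). Without Ly6Chi replicate 1 or 2 or either knockout replicate it did not pass.

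Lipid genes split. Lpl, lipoprotein lipase, had 13.4 and 10.3 TPM in cMoP, against 0.37 TPM in MDP (log2 change 3.36 ± 0.53, adjusted p = 0.0298), and was 1 of 3 rises among 26 tested members, beside 2.38% of all genes. Fads2, the delta-6 desaturase of polyunsaturated fatty acids, had 2.46 and 1.38 TPM in cMoP, against 70.9 TPM in MDP (log2 change −4.38 ± 0.27, adjusted p = 0.00247). It was 1 of 2 falls, beside 2.17% of all genes. Its chromosomal neighbours Fads1 and Fads3 had 10.6 and 6.85 TPM and 0.49 and 0.23 TPM in cMoP, against 29.6 TPM and 15.8 TPM in MDP. Fads1 missed the threshold (log2 change −1.39 ± 0.29, adjusted p = 0.0612) and Fads3 was untested. Without Ly6Chi replicate 1 or 2 the list had no rise and 1 fall, and without either knockout replicate 1 of each.

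Small RNA and predicted genes (Mir, Snor, Gm or Rik symbols) were left out of the choice of genes with the largest changes, although some changed by more. Gm14287, Mir142b and Gm26394 were called lower, at 0 TPM in both cMoP libraries, against 241.89, 44.3 and 44.3 TPM in MDP. The Ly6Chi and knockout libraries listed them at 0 too, so the calls drew on no spread of their own between replicates. These genes met the filter only through MDP and Ly6Clo, with 221.6, 89.31 and 29.77 TPM in Ly6Clo. Gm21188 rose to 37.7 and 22.03 TPM in cMoP, against 0.78 TPM in MDP (log2 change 4.25 ± 0.24, adjusted p = 0.0023). Among the other genes outside the lists with the largest changes, Dmkn, which encodes the secreted protein dermokine, had 92.4 and 174 TPM in cMoP, against 1.9 TPM in MDP (log2 change 5.69 ± 0.49, adjusted p = 0.00544). Nrg1, neuregulin 1, a ligand of ErbB receptors, had 30.96 and 29.7 TPM in cMoP, against 0.37 TPM in MDP (log2 change 4.66 ± 0.19, adjusted p = 0.00115). F10, coagulation factor X, had 39.6 and 31.7 TPM in cMoP, against 1.38 TPM in MDP (log2 change 4.15 ± 0.17, adjusted p = 0.00115). All of these were under 2 TPM in MDP. Gda, guanine deaminase, rose by 3.75 ± 0.17, Sgms2, a sphingomyelin synthase, by 4.06 ± 0.26, and Dstn, the actin-severing protein destrin, by 3.57 ± 0.22. On the other side Epha2, an ephrin receptor, had 0.14 and 0.03 TPM in cMoP, against 15.7 TPM in MDP (log2 change −3.74 ± 0.22, adjusted p = 0.00245). Cd72, a B cell coreceptor, had 0.44 and 0.18 TPM in cMoP, against 19.6 TPM in MDP (log2 change −3.77 ± 0.26, adjusted p = 0.00329), and Drc7, a component of motile cilia, 1.76 and 0.55 TPM in cMoP, against 33.7 TPM in MDP (log2 change −3.83 ± 0.32, adjusted p = 0.00515). Aff3 and Epb41l4b fell by a similar amount (−3.98 ± 0.34 and −3.86 ± 0.37).

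The levels of these genes in control Ly6Chi monocytes, the next stage, fell into several patterns. Elane stood at 219 TPM in MDP, 5617 and 4842 TPM in cMoP and 144 and 191 TPM in Ly6Chi monocytes, and Ms4a3 at 56.03, 679 and 1118 and 9.24 and 12.4 TPM in the same order. These peaked at cMoP. Ly6c2 at 3439 and 4057 TPM, Sgms2 at 25.8 and 24.5 TPM and Clec5a at 75.6 and 81.1 TPM in Ly6Chi monocytes stayed near their cMoP levels. Cybb stood at 849.6 and 816 TPM, Lgals3 at 1967 and 1989 TPM and F10 at 165 and 189 TPM in Ly6Chi monocytes, above both cMoP libraries. Hoxa9, Fads2, Cd34 and Ccnd1 were lower still in Ly6Chi monocytes, at 0.25 and 0.05, 0.84 and 0.76, 6.08 and 7.33 and 0.66 and 0.68 TPM. Cd74 and H2-Aa, low in cMoP, were high in Ly6Chi monocytes, at 729.8 and 781 and 281 and 206 TPM.

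A difference between libraries described as floxed and a library that is not cannot be told apart here from one between cMoP and MDP. In 117 of the 285 genes that fell (41.1%), MDP and Ly6Clo, the WT libraries not described as floxed, both lay above the 6 others, beside 18.1% of the 7761 tested genes in which both cMoP libraries lay below MDP. In 100 of the 313 that rose (31.9%) both lay below the 6 others, beside 16.2% of the 2337 tested genes in which both cMoP libraries lay above MDP. All these positions were read on deposited TPM, while the calls were made on scaled values. The sets set side by side were also not matched for size of change. No test was made of these shares. Itgax, Clec9a, Ly6d, Tcf4, Cd22, Blnk, Cd72, Runx2 and Ccnd1 showed the first pattern, with Itgax at 186 TPM and Cd22 at 13.7 TPM in Ly6Clo monocytes. Ly6c2, Nrg1, Clec5a, Gstm1, Cebpa and Cebpe showed the second. Ly6Clo monocytes are named for low Ly6C, so the low Ly6c2 there (62.8 TPM) goes with the label. Elane, Flt3 and Hoxa9 showed neither, at 65.8, 9.46 and 0.19 TPM in Ly6Clo monocytes. Cd22, Blnk and Ly6d were under 1 TPM in all libraries but MDP and Ly6Clo, and so met the filter only through these.

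Some genes were detected well at 1 stage and hardly at the other. In MDP 82 genes had at least 5 TPM and under 1 TPM in both cMoP libraries, of which 37 passed as lower and 43 were untested because they were under 1 TPM in all other libraries. The untested ones include, beside Dntt and Siglech, the potassium channel subunit Kcng1 (37.2 TPM in MDP), the ephrin receptor Ephb2 (15.7 TPM) and the angiopoietin Angpt1 (8.22 TPM). They carry no p-value and were named after their values were seen. In the other direction 14 genes had at least 5 TPM in both cMoP libraries and under 1 TPM in MDP, and 12 of them passed as higher. Serpine2, a serine protease inhibitor, with 10.7 and 8.16 TPM in cMoP, against 0.49 TPM in MDP, and Mgam, maltase-glucoamylase, with 7.43 and 5.74 TPM in cMoP, against 0.33 TPM in MDP, were under 1 TPM in all other libraries. Both met the filter only through the cMoP libraries, where they are high.

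The share of introns past a retention ratio of 0.1 was lower in both cMoP libraries than in MDP, by unequal amounts. Of 80694 introns with at least 10 spliced reads in each of the 3 libraries, 4.22% (Wilson 95% interval 4.08 to 4.36) and 1.33% (1.26 to 1.41) had a retention ratio of at least 0.1 in cMoP, against 5.93% (5.77 to 6.09) in MDP. The retention ratio is the authors' share of intron coverage in intron coverage plus spliced reads, and the intervals cover counting error only. The cMoP replicates lay farther apart from each other than replicate 1 lay from MDP. Replicate 2, the lowest, was also the library with the strongest 3′ lean (1.13). Among last introns, where that lean has least room, the shares were 6.61% (6.00 to 7.29) and 2.25% (1.90 to 2.67) in cMoP, against 7.85% (7.18 to 8.58) in MDP. The intervals of cMoP replicate 1 and MDP overlap there. In the tested last introns, boundary reads made up 6.19% and 4.46% of boundary and spliced reads in cMoP, against 6.07% in MDP. The median ratio over all 80694 introns was 0.0064 and 0.0023 in cMoP, against 0.0074 in MDP. In first introns it was 0.0053 and 0.0028 in cMoP, against 0.0052 in MDP. Replicate 1 thus lay below MDP by some measures and slightly above it by others. No test over samples was made for these shares.

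**Figure D4:**
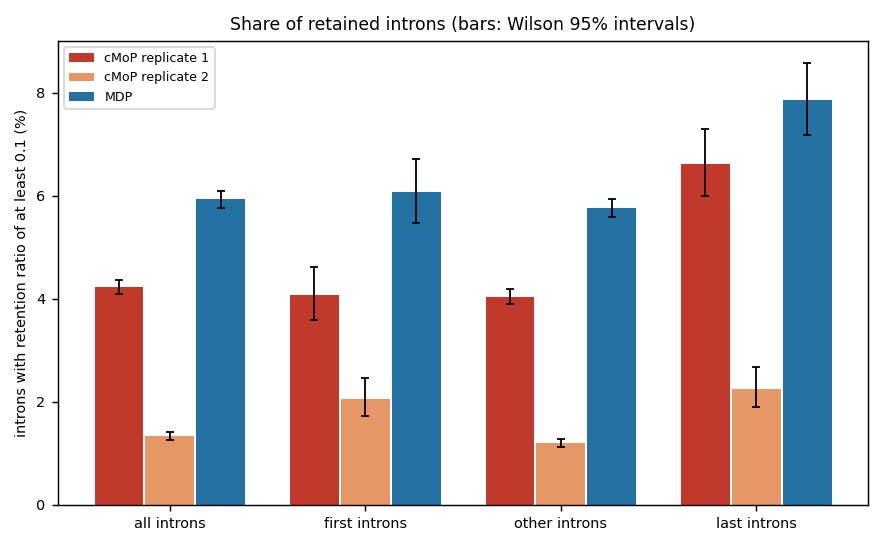
Percent of introns with a retention ratio of at least 0.1 in cMoP replicate 1 (red), cMoP replicate 2 (orange) and MDP (blue), over all 80694 introns and by place in the gene, with Wilson 95% intervals. cMoP replicate 2 is lowest in each class, and cMoP replicate 1 lies between it and MDP.

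By intron, edgeR's quasi-likelihood test of boundary reads against spliced reads passed 0 of 48132 introns (0.0%), with 4020 at an unadjusted p under 0.05, 3365 of them lower in cMoP and 655 higher, and DESeq2 passed 0 too. The median intron stood at −0.39 on the log2 scale, and 68.0% of introns were lower in cMoP. The median was −0.84 with cMoP replicate 2 alone, where 5014 introns passed, and −0.11 with cMoP replicate 1 alone, where 11 passed. With the lean covariate it was 0.21, on the other side of 0. The overall shift thus changed sign with that covariate, and its part in the result was not tested further.

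Introns of primary granule genes, 89 in 18 genes, had a median change of −0.52 beside −0.39 over all introns. Boundary reads made up 3.37% and 2.74% of their boundary and spliced reads in cMoP, against 4.98% in MDP. In Elane the 441 bp intron 3 (chr10:79887125-79887565, mm10, coding) had 0.023 and 0.018 in cMoP, against 0.054 in MDP as retention ratio, on 38034 and 33753 spliced reads in cMoP, against 1041 in MDP. In Prtn3 the 442 bp intron 2 (chr10:79880594-79881035, coding) had ratios of 0.005 and 0.004 in cMoP, against 0.018 in MDP, with almost all boundary reads at its right end. In Ctsg the last intron (chr14:56100151-56100542, coding) had 0.022 and 0.010 in cMoP, against 0.048 in MDP. All 3 ratios were lower in both cMoP libraries, whose spliced reads over these introns were also more numerous, and none passed edgeR's test relative to the median intron (adjusted p = 0.367, 0.111 and 0.505). The leading intron of Ly6c2 (228 bp) had a ratio of 0.048 and 0.038 in cMoP, against 0.203 in MDP (adjusted p = 0.693).

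The regulators named above showed no passed change of retention. The 116 bp leading intron of Klf4 had ratios of 0.105 and 0.062 in cMoP, against 0.144 in MDP, and an 82 bp intron of Csf3r had 0.217 and 0.133 in cMoP, against 0.259 in MDP. In an intron of Irf8 the ratios were 0.057 and 0.026 in cMoP, against 0.067 in MDP. The nuclear lamina genes Lmnb1 and Lbr had 0.023 and 0.009 and 0.021 and 0.005 in cMoP, against 0.024 and 0.053 in MDP. In each of these the 2 cMoP libraries differed from each other, with replicate 2 the lower, and adjusted p-values lay between 0.68 and 0.915. Those p-values belong to edgeR's test of boundary against spliced reads relative to the median intron. There Lmnb1 and Lbr changed by 0.16 ± 0.34 and 0.23 ± 0.33, and Klf4, Csf3r and Irf8 by −0.25, −0.41 and −0.49. The Lbr intron was read almost wholly at a single boundary.

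Set against the median intron, 9 of 48132 introns passed edgeR's test (0.0187%), 8 higher and 1 lower in cMoP. The 8 higher ones lay in Gtf2f2, H2-Ab1, Lrp6, Zfp207, Rbm3 and, as 3 overlapping introns, Gbp3, and each was read almost wholly at a single boundary. In H2-Ab1 (chr17:34263406-34264760) boundary reads numbered 34 and 17 beside 13 and 5 spliced reads in cMoP, against 51 beside 203 in MDP, so both counts were lower in cMoP, in a gene that fell. The lower one lay in H2afy, the gene of the histone variant macroH2A1 (chr13:56088343-56096123, 7781 bp, coding). Its ratio was 0.027 and 0.005 in cMoP, against 0.072 in MDP, on 9591 and 9132 spliced reads in cMoP, against 11763 in MDP (log2 change −2.06 ± 0.39, adjusted p = 0.0379). Both cMoP libraries were lower, and replicate 2 by the larger amount.

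Of the introns read at both boundaries with the lowest p-values, none but the long H2afy intron passed. In Nfkbia, which encodes the inhibitor of NF-kB, the 260 bp intron 3 (chr12:55490860-55491119) had ratios of 0.152 and 0.189 in cMoP, against 0.051 in MDP (log2 change 2.76 ± 0.57, adjusted p = 0.0921). The 436 bp intron 5 of the same gene (chr12:55489970-55490405) had 0.197 and 0.192 in cMoP, against 0.079 in MDP (adjusted p = 0.114). Both introns of this gene thus had more intron coverage per spliced read in each cMoP library. Slc3a2, the heavy chain of an amino acid transporter, had 0.132 and 0.046 in cMoP, against 0.016 in MDP in its 99 bp intron 8 (log2 change 2.15 ± 0.49, adjusted p = 0.167). Ezh2, the methyltransferase of Polycomb complex 2, had 0.039 and 0.015 in cMoP, against 0.113 in MDP in its intron 14 (chr6:47540856-47541844; log2 change −1.80 ± 0.39, adjusted p = 0.121). Srrm1, a splicing coactivator, had 0.027 and 0.008 in cMoP, against 0.065 in MDP in an intron of a non-coding transcript (log2 change −2.09 ± 0.46, adjusted p = 0.137).

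**Figure D5:**
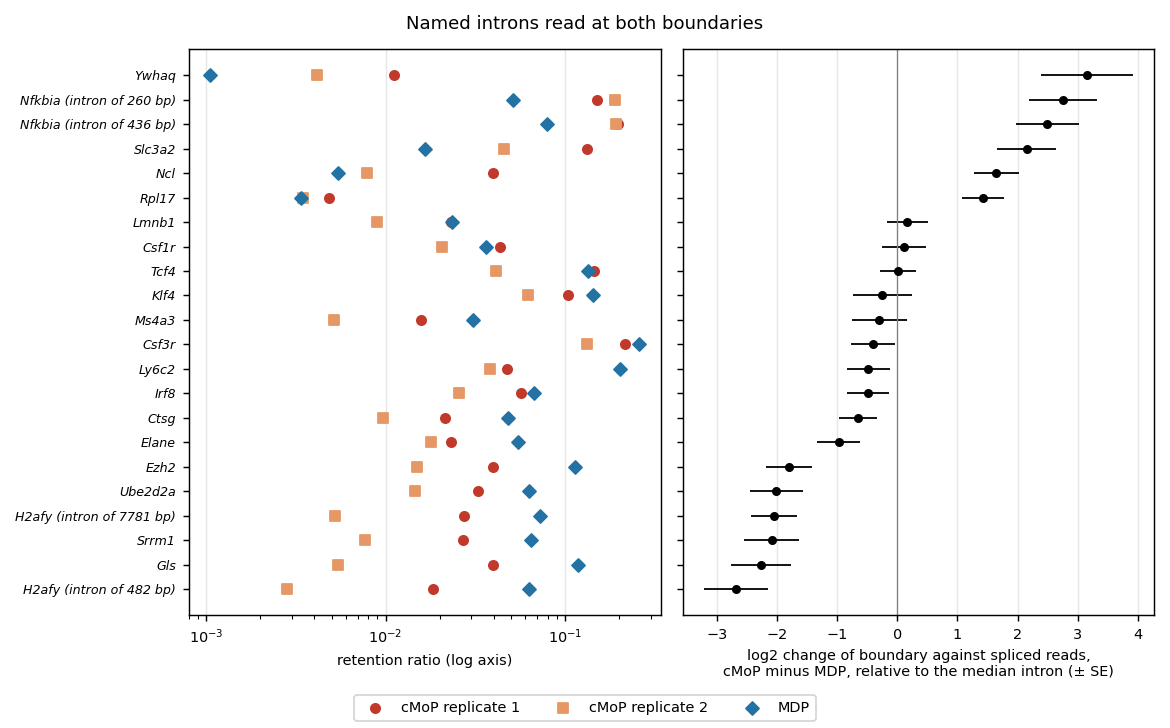
Left, retention ratio on a log axis in cMoP replicate 1 (red circles), cMoP replicate 2 (orange squares) and MDP (blue diamonds) for the named introns read at both boundaries; right, the log2 change of boundary against spliced reads relative to the median intron, cMoP minus MDP, with its SE. Of these the 7781 bp intron of H2afy alone passed the test.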

How the data were processed

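RNA of 8 mouse libraries was read as stranded polyA libraries, per the labels' protocols. The submitters' processing notes name FastQC, Trimmomatic, STAR 2.5.2a and RSEM and the builds mm10 and hg38, without order or settings. The gene table was deposited by the authors under an FPKM name, but each of its columns sums to 1000000, so its values were treated as TPM (transcripts per 1000000) for 48709 genes. The intron tables hold, as deposited by the authors, counts of reads over exon-intron boundaries and splice junctions, the coverage signal of each intron and its covered fraction. They also hold a retention ratio, which recomputed within 0.0001 for 100.0% of introns as coverage over coverage plus the larger spliced count. The program behind these tables is not stated in the labels used.

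TPM were divided by a median-of-ratios factor per library (1.02 and 0.862 in cMoP, 1.16 in MDP), turned into log2(TPM + 1) and fitted with limma 3.58.1 (trend) in R 4.3.3 over all 8 libraries in 5 groups, which leaves 3 residual degrees of freedom. MDP has 1 library and is assumed to vary like the other groups. Genes needed at least 1 TPM in 2 libraries, and Benjamini-Hochberg adjusted p-values were read at 0.05. Introns with at least 20 boundary plus spliced reads in every library and at least 20 boundary reads in all were tested with edgeR 4.0.16 (quasi-likelihood, boundary against spliced reads), unscaled and relative to the median intron. DESeq2 1.42.0 served as an alternative. Both fits were tested on simulated data. Promoters came from RefSeq (GRCm38.p6), and introns were placed with GENCODE transcripts.

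The members, gene lists and tests were chosen with earlier results of these data known. Genes were named if defining for the stages, if among the 4 largest passed changes of a list in a direction (mean of at least 5 TPM), or if among the 12 largest in a direction over all genes (at least 10 TPM, both cMoP libraries on 1 side of MDP, Mir, Snor, Gm and Rik symbols left out). Other genes were named after their values were seen.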

Additional observations from a re-analysis of the deposited data

How the results depend on the processing

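The count of 598 genes became 2021 with no filter on low values (417 higher, 1604 lower), 163 without the knockout libraries, 139 with the lean covariate (94 higher, 45 lower) and 1123 with DESeq2 on spliced reads, and ranged between 146 and 4768 when 1 library was left out. The split of higher to lower calls moved to 177 and 331 with no further scaling, where the median of all genes was −0.28, to 294 and 453 with a pseudocount of 5, and to 271 and 142 with a 5 TPM filter. With a pseudocount of 0.1 it was 306 and 190, within 10 points of the main split. Calls over all list members, 89 in the main fit, were 40 without the knockout libraries, 32 with the lean covariate, 165 with DESeq2, and 36 to 262 with 1 library left out. Of the 78 passed genes chosen by the naming rule, which leaves out other passed genes the text names, 30 passed under every setting that tested them, the lean covariate lost 44, and no sign turned. The fit with that covariate has fewer residual degrees of freedom than the main fit. Unscaled intron calls were 6 with the 3 libraries alone and 0 to 5014 with 1 library left out. Relative to the median intron, 9 calls became 1 with DESeq2, 24 with a summed filter, 2 with at least 50 reads, 14 without the knockout libraries, 5 with the lean covariate, 5 in last introns, 2 in introns without a warning and 1 to 1062 with 1 library left out. The share of retained introns was 11.4% and 3.76% in cMoP, against 14.6% in MDP, at a ratio of 0.05, and 1.06% and 0.341% in cMoP, against 1.67% in MDP, at 0.2. It was 3.23% and 0.806% in cMoP, against 4.70% in MDP, with 50 spliced reads, 6.61% and 2.25% in cMoP, against 7.85% in MDP, in last introns, and 2.13% and 0.892% in cMoP, against 2.71% in MDP, without warnings. The lean of last over leading introns was 1.44 and 1.89 in cMoP, against 1.06 in MDP, and in genes of 10 or more introns 1.00 and 1.43 in cMoP, against 0.66 in MDP. The cause of these moves was not tested. No paired analysis was possible because MDP has 1 library with no replicate number. With 1 MDP library, spread between MDP samples was not measured, and floxed alleles and stage cannot be told apart.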

Other observations

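Between the cMoP replicates 790 of the genes tested (6.02%) differed by more than 2-fold, 530 higher in replicate 1 and 260 higher in replicate 2. Chst13, a carbohydrate sulfotransferase, had 13.8 and 11.9 TPM in cMoP, against 0.57 TPM in MDP. Gpx3, a secreted glutathione peroxidase, had 24.2 and 13.5 TPM in cMoP, against 0.96 TPM in MDP. Introns of secondary granule and neutrophil genes had a median change of 0.06, where those of dendritic cell genes had −1.04 and all introns −0.39. In MDP and Ly6Clo, the WT libraries not described as floxed, 6 small RNA or predicted genes reached 5 TPM while all other libraries listed them at 0, and none did so the other way round.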
